A study of Homo sapiens with 4 samples.

Results

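DEAD and DEAH box RNA helicases were examined as a family among the RNAs recovered by immunoprecipitation of KIAA1429. Members were chosen by gene name, as every name made of DDX or DHX, a number and at most 1 further letter, which gave 50 of the 13300 gene names listed. RIP-seq sequences the RNA that comes down with an antibody, and the aim stated for these libraries was to find the mRNAs bound by KIAA1429, a subunit of the m6A methyltransferase complex that is listed under the gene name VIRMA. The first group holds 2 libraries made with normal IgG, the control for unspecific recovery, and the second holds 2 libraries made with an antibody against KIAA1429. All 4 came from HCCLM3, an established cell line of human hepatocellular carcinoma, with no other treatment in the labels. No input RNA was analysed here, so a value gives what was recovered with an antibody and not how abundant the mRNA was in the cells. Nothing in the labels says that the replicates came from separate cultures, so p-values measure only the spread between these libraries, which may be technical.

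DEAD and DEAH box proteins use ATP to unwind RNA duplexes or to strip proteins from RNA, and different members act at nearly every step in the life of an mRNA and in the assembly of ribosomes. Their name comes from motif II of the helicase core, a short stretch rich in acidic residues that takes part in ATP hydrolysis. DEAD box members mostly open short local duplexes, whereas DEAH box members tend to move along single strands, several of them driving the steps of the splicing cycle.

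The codons of motif II were located in the most abundant suitable transcript of 47 of the 50 genes, in the GENCODE annotation lifted to GRCh37, the build of the deposited coordinates. In 24 genes, all named DDX, the codons spelled DEAD. In 9 they spelled DEAH, of which 8 were named DHX and the other was DDX11, a DNA helicase. The other 14 had a variant, among them DDX39A and DDX39B, and the motif was not located in DDX41, DHX32 and DHX58. The stretches below run 5′ to 3′ along the coding strand, 30 bases each, with the 12 bases of the motif in capitals. They are shown because they give the family its name and show how far close paralogs share sequence, which matters for reads that cannot be told apart.
DDX19A: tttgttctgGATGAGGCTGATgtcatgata
DDX19B: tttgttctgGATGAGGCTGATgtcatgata
DDX39A: tttgtgctgGACGAGTGTGACaagatgctg
DDX39B: tttattttgGATGAATGTGATaagatgctt
DDX5: cttgtccttGATGAAGCAGATagaatgctt
DDX17: cttgtattgGACGAAGCTGACagaatgctt
DDX47: ttggtcatgGATGAAGCCGACcgaatactg
DHX33: gtcattttgGATGAAGCTCACgaacggact
DHX40: attattttgGATGAAGCCCATgaaagaact
Each of these lies in a single coding exon, at chr16:70400095-70400124 for DDX19A and chr16:70363302-70363331 for DDX19B (both plus strand), chr19:14521811-14521840 for DDX39A and chr6:31504287-31504316 for DDX39B (both minus strand). Those of DDX5 (chr17:62499354-62499383) and DDX17 (chr22:38890939-38890968) are on the minus strand, as is DHX33 (chr17:5365717-5365746), while DDX47 (chr12:12974967-12974996) and DHX40 (chr17:57650558-57650587) are on the plus strand. DDX19A and DDX19B differed at 0 of the 30 bases, DDX5 and DDX17 at 6, and DDX39A and DDX39B at 7. Over the whole coding sequence, identity was 95.3% for DDX19A and DDX19B, with a longest shared run of 315 bases. It was 80.0% for DDX39A and DDX39B and 70.4% for DDX5 and DDX17, and in both pairs the longest shared run was 26 bases. How reads shared between DDX19A and DDX19B were divided is not given in the sources used here, so the values of these genes are uncertain.

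The deposited values are FPKM, a measure of fragments corrected for transcript length and sequencing yield, and they were summed over the listed transcripts of each gene to give a gene total. The 50 genes had 144 listed transcripts. Gene totals averaging 1 FPKM or more were tested, 11361 in all, and these included all 50. DDX19A in the IgG RIP and DDX27 in the KIAA1429 RIP had a group mean under 1 FPKM and passed through the other group. Means ranged from 1.58 FPKM for DDX20 to 98.9 FPKM for DDX17, and the 10 most abundant genes held 57.6% of the family's summed FPKM. Sequencing depth is unknown, because the FPKM values could not be turned back into reads.

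The IgG RIP libraries differed from each other over this family. The 50 gene totals summed to 965 FPKM in IgG RIP replicate 1 and 646 FPKM in IgG RIP replicate 2, against 961 and 871 FPKM in KIAA1429 RIP replicates 1 and 2. As a share of all FPKM in the library these were 0.327% and 0.205% in the IgG RIP and 0.285% and 0.256% in the KIAA1429 RIP. The IgG RIP replicate 2 library had the lowest value of the 4 for 30 of the 50 genes (60%), compared with 34.0% of all gene totals tested, and 39 of 50 (78%) were lower there than in the other IgG RIP library, compared with 58.0% of all. The median absolute difference between the control libraries in these genes was 0.72 on the log2(FPKM + 1) scale, and that between the KIAA1429 RIP libraries was 0.41. Over all gene totals tested the same medians were 0.52 and 0.42. By the pattern over the 50 genes it was IgG RIP replicate 1 that differed most, with correlations of 0.689 to 0.780 with the other libraries, while IgG RIP replicate 2 had 0.821 and 0.927 with KIAA1429 RIP replicates 1 and 2. These run across genes, which are not independent replicates. The cause of either difference was not tested.

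**Figure D1:**
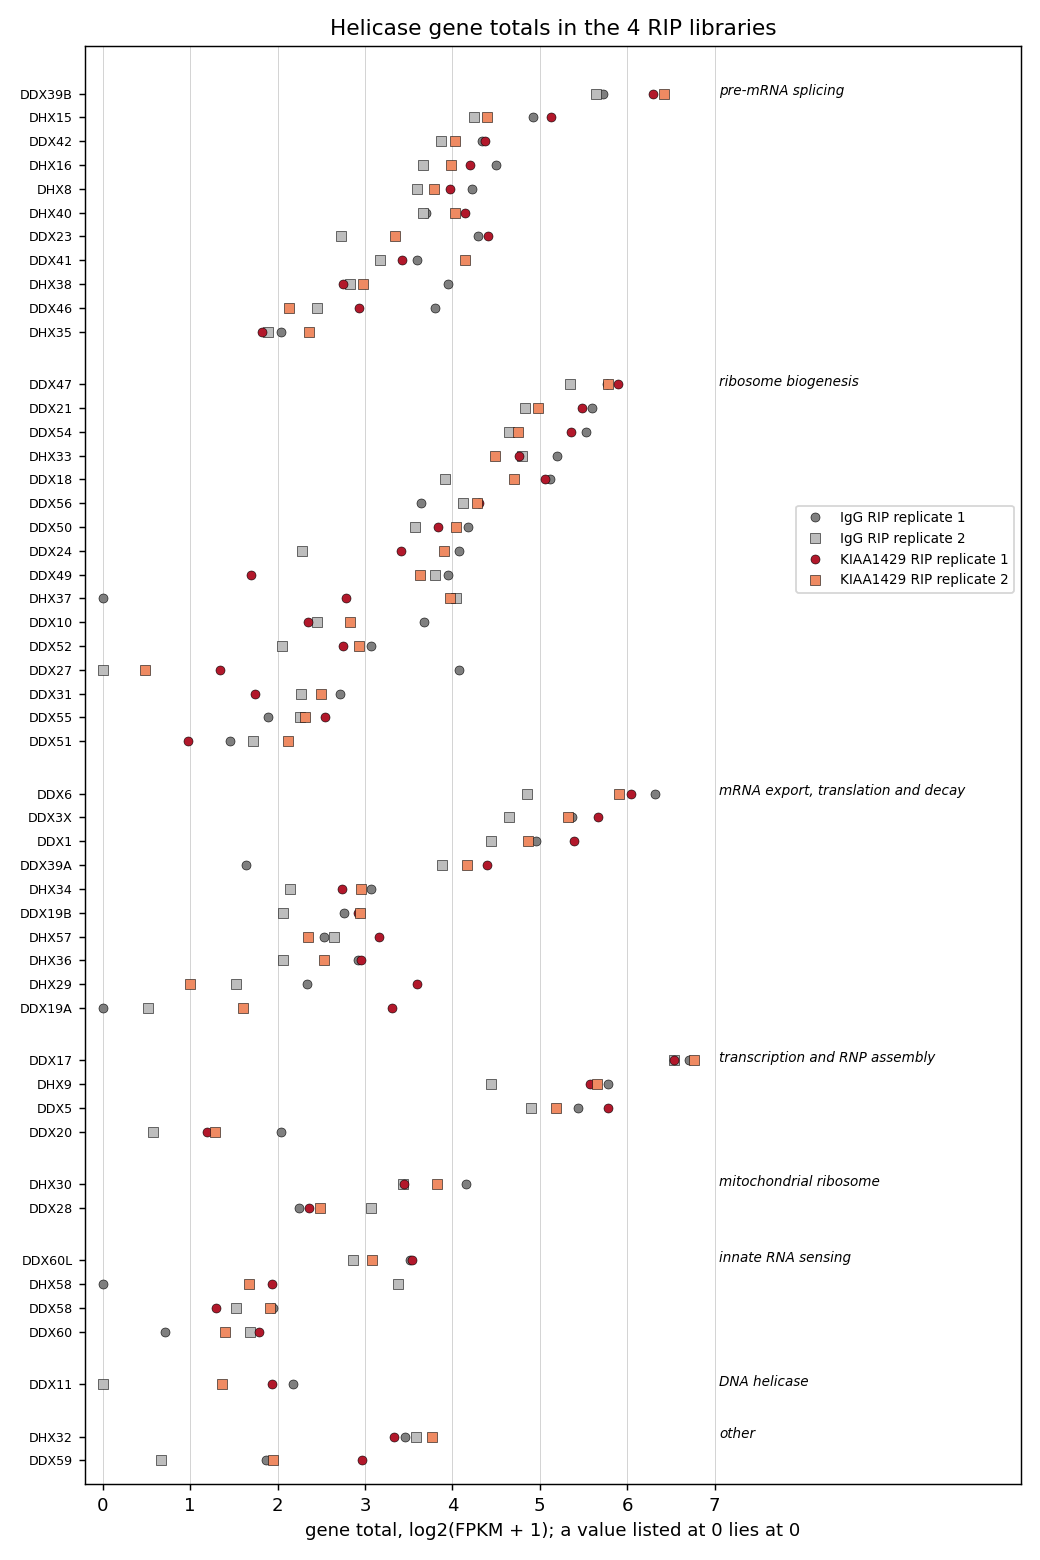
Gene totals of the 50 helicase genes on the log2(FPKM + 1) scale, with a point for each of the 4 libraries and the genes grouped by role. The light grey squares of IgG RIP replicate 2 are the lowest point in 30 of the 50 genes.

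Among the 11 genes of pre-mRNA splicing, DDX39B (UAP56), which helps load the U2 snRNP and couples splicing to mRNA export, was the most abundant. Its gene, at chr6:31497996-31510225 on the minus strand, gave 51.8 and 48.9 FPKM in the IgG RIP libraries and 77.3 and 84.9 FPKM in the KIAA1429 RIP libraries. Both KIAA1429 RIP values lay above both IgG RIP values, and the libraries within each group were close. The limma log2 fold change, on the log2(FPKM + 1) scale as are all those below, was 0.68 with a standard error of 0.27, and the unadjusted p of 0.0433 became an adjusted p of 0.997 over all gene totals. Exons of DDX39B overlap those of the readthrough gene ATP6V1G2-DDX39B on the same strand and of DDX39B-AS1 and MCCD1 on the other, so part of its signal may belong to them, which was not tested. DHX40, a DEAH box protein placed here with the splicing helicases, had 11.9 and 11.7 FPKM in the IgG RIP and 16.7 and 15.3 FPKM in the KIAA1429 RIP. These groups were also apart, with a smaller log2 fold change of 0.40 and a standard error of 0.33.

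The other 9 splicing genes overlapped between the groups, so 2 of 11 were apart in the higher direction, a share near the 16.6% of all gene totals. DHX38 (PRP16), which acts between the catalytic steps of splicing, had 14.5 and 6.10 FPKM in the IgG RIP and 5.72 and 6.88 FPKM in the KIAA1429 RIP. DDX46 (PRP5), which acts when the U2 snRNP joins the intron, had 13.0 and 4.47 FPKM in the IgG RIP and 6.61 and 3.37 FPKM in the KIAA1429 RIP. In both genes the IgG RIP replicate 1 library alone was high, and without it their log2 fold changes went from -0.53 and -0.60 to 0.036 and 0.076. DDX23 (PRP28), a component of the U5 snRNP, varied more by replicate number than by antibody, with 18.6 and 5.62 FPKM in the IgG RIP and 20.2 and 9.18 FPKM in the KIAA1429 RIP. The related DEAH box genes DHX16 (PRP2), with 21.6 and 11.7 against 17.5 and 14.8 FPKM, and DHX8 (PRP22), with 17.7 and 11.1 against 14.6 and 12.8 FPKM, had KIAA1429 RIP values that lay between their IgG RIP values.

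Ribosome biogenesis was the largest role, with 16 genes. Its groups were apart in 3 genes in the higher and 2 in the lower direction, shares near the 16.6% and 15.2% of all gene totals. DDX47, needed for processing of the ribosomal RNA precursor, was its most abundant gene, at 53.7 and 39.6 FPKM in the IgG RIP and 58.7 and 54.0 FPKM in the KIAA1429 RIP. DDX56 had 11.5 and 16.4 FPKM in the IgG RIP and 18.7 and 18.4 FPKM in the KIAA1429 RIP. DDX55 had 2.70 and 3.80 against 4.81 and 3.96 FPKM. In DDX47 and DDX55 the nearest values of the groups were almost equal, and their log2 fold changes of 0.28 and 0.35 were smaller than their standard errors of 0.30 and 0.48. Without IgG RIP replicate 2 that of DDX47 was 0.066, and without IgG RIP replicate 1 those of DDX55 and DDX56 were 0.16 and 0.17. The log2 fold change of DDX56 was 0.41 for the gene total and -0.86 when only transcripts typed as protein coding were summed, so its direction rested on a transcript of another type.

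The genes apart in the lower direction were DDX49 and DHX33. DDX49 had 14.5 and 12.9 FPKM in the IgG RIP and 2.25 and 11.4 FPKM in the KIAA1429 RIP. Only the KIAA1429 RIP replicate 1 library was far below the others, and the log2 fold change of -1.21 (standard error 0.64) was -0.25 without that library. DHX33, which acts in ribosomal RNA synthesis, had 35.6 and 26.8 FPKM in the IgG RIP and 26.2 and 21.5 FPKM in the KIAA1429 RIP, again with nearly touching values and a log2 fold change of -0.37 with a standard error of 0.32, and of -0.17 without IgG RIP replicate 1. Single libraries also set the values of DDX27, which had 15.8 FPKM in IgG RIP replicate 1, was listed at 0 in IgG RIP replicate 2 and had 1.54 and 0.39 FPKM in the KIAA1429 RIP. Its log2 fold change was -1.13 with all libraries and 0.91 without IgG RIP replicate 1. DHX37 was listed at 0 in IgG RIP replicate 1 and had 15.5 FPKM in IgG RIP replicate 2, against 5.89 and 14.7 FPKM in the KIAA1429 RIP. For both genes the control libraries differed more from each other than the groups did.

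The remaining genes of ribosome biogenesis overlapped. DDX21, a nucleolar helicase that links transcription by RNA polymerases I and II to ribosomal RNA processing, had 47.5 and 27.5 FPKM in the IgG RIP and 43.6 and 30.6 FPKM in the KIAA1429 RIP, and its paralog DDX50 had 17.1 and 10.9 against 13.3 and 15.4 FPKM. DDX54, among the 10 most abundant genes, had 45.3 and 24.2 against 39.96 and 26.0 FPKM. In each of them the KIAA1429 RIP values lay between the IgG RIP values. DDX10 had 11.8 and 4.47 FPKM in the IgG RIP and 4.07 and 6.10 FPKM in the KIAA1429 RIP, with IgG RIP replicate 1 alone high and a log2 fold change that went from -0.48 to 0.13 without it.

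The 10 genes of mRNA export, translation and decay all had a ratio of group means, KIAA1429 RIP over IgG RIP, above 1, as did 34 of the 50 helicase genes (68%) and 50.6% of all gene totals. Without IgG RIP replicate 2, 6 of the 10 had a log2 fold change above 0, and without KIAA1429 RIP replicate 1, 8 of the 10 did. Groups were apart in 3 of the 10 genes in the higher and 0 in the lower direction, beside 16.6% and 15.2% of all gene totals. DDX19A and DDX19B, neighbours on chromosome 16 and counterparts of the yeast export factor Dbp5, were both apart. DDX19A was listed at 0 in IgG RIP replicate 1 and had 0.43 FPKM in IgG RIP replicate 2, against 8.88 and 2.05 FPKM in the KIAA1429 RIP. DDX19B had 5.79 and 3.17 FPKM in the IgG RIP and 6.60 and 6.72 FPKM in the KIAA1429 RIP. By gene totals in all 4 libraries, DDX19A had the largest log2 fold change of the 50 genes, 2.20 with a standard error of 0.73. Those of DHX37 and DDX39A were larger without IgG RIP replicate 2, and also without KIAA1429 RIP replicate 1. The limma p of DDX19A was 0.0202 unadjusted and 0.997 adjusted. DDX19A averaged 0.21 FPKM in the IgG RIP and passed the filter only through the KIAA1429 RIP. No conclusion is drawn from its p. Its log2 fold change was 1.35 without KIAA1429 RIP replicate 1 and 4.26 with a pseudocount of 0.1. Its level was low, its KIAA1429 RIP libraries lay far from each other, and it shares long runs with DDX19B, whose log2 fold change was 0.53 with a standard error of 0.46, and 0.17 without IgG RIP replicate 2.

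DDX39A (URH49), the paralog of DDX39B in mRNA export, had 2.11 and 13.7 FPKM in the IgG RIP and 20.1 and 16.9 FPKM in the KIAA1429 RIP. The groups were apart, but the IgG RIP replicate 1 library alone was far below the rest. Its log2 fold change was 1.52 with a standard error of 0.70, at an unadjusted p of 0.0673, and was 0.40 without that library. DHX29, which helps the small ribosomal subunit scan structured leaders, had 4.05 and 1.88 FPKM in the IgG RIP and 11.1 and 0.99 FPKM in the KIAA1429 RIP, so that its highest and lowest values were in the same group. Its log2 fold change of 0.36 was -0.94 without KIAA1429 RIP replicate 1 and -0.042 without IgG RIP replicate 2.

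The abundant genes of this role overlapped between the groups. DDX6, a repressor of translation found in P-bodies, had 78.7 and 27.9 FPKM in the IgG RIP and 64.9 and 58.8 FPKM in the KIAA1429 RIP. DDX3X, which promotes translation of mRNAs with structured leaders, had 40.5 and 24.1 against 49.8 and 38.9 FPKM, and DDX1 had 30.0 and 20.7 against 41.1 and 28.2 FPKM. In each of them IgG RIP replicate 2 was the lowest library, and for DDX6 the log2 fold change of 0.39 became -0.35 without it. DHX36, which resolves G-quadruplexes, had 6.57 and 3.19 FPKM in the IgG RIP and 6.77 and 4.77 FPKM in the KIAA1429 RIP.

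The genes of transcription and RNP assembly included DDX17 and DDX5, paralogs that act as coactivators of transcription and in RNA processing. DDX17, the most abundant of the 50, had 104 and 91.8 FPKM in the IgG RIP and 92.1 and 108.0 FPKM in the KIAA1429 RIP, which left a log2 fold change of 0.032 with a standard error of 0.28. DDX5 had 42.3 and 28.9 against 53.8 and 35.5 FPKM. DHX9, a helicase of double-stranded RNA and RNA-DNA hybrids, had 54.1 and 20.7 against 46.5 and 49.6 FPKM. All 3 overlapped between the groups, and in DHX9 the IgG RIP replicate 2 library alone was low, with a log2 fold change of 0.50 that was -0.17 without it. DDX20, a partner of the SMN complex, was the least abundant gene, with 3.11 and 0.49 FPKM in the IgG RIP and 1.28 and 1.44 FPKM in the KIAA1429 RIP.

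In the smaller roles the groups were apart in 1 of the remaining 9 genes, in the higher direction, beside 16.6% of all gene totals. DDX59, linked to development of the face and digits, had 2.66 and 0.59 FPKM in the IgG RIP and 6.79 and 2.85 FPKM in the KIAA1429 RIP, with a log2 fold change of 1.18, a standard error of 0.66 and an unadjusted p of 0.116. Its log2 fold change was 0.58 without IgG RIP replicate 2 and 0.67 without KIAA1429 RIP replicate 1. Among the sensors of viral RNA, DHX58 (LGP2) was listed at 0 in IgG RIP replicate 1 and had 9.38 FPKM in IgG RIP replicate 2, with 2.83 and 2.20 FPKM in the KIAA1429 RIP. Here the ratio of the group means and the limma fold change had opposite signs, -0.90 and 0.12 on their log2 scales, and the limma value was 1.42 with a pseudocount of 0.1. The interferon-induced paralogs DDX60, with 0.64 and 2.21 against 2.46 and 1.63 FPKM, and DDX60L, with 10.4 and 6.30 against 10.6 and 7.44 FPKM, overlapped as well. DDX11 was listed at 0 in IgG RIP replicate 2 and had 3.51 FPKM in IgG RIP replicate 1, against 2.82 and 1.57 FPKM in the KIAA1429 RIP.

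Across the family, limma called 0 of the 50 genes higher and 0 lower at an adjusted p under 0.05 with an absolute log2 fold change above 1, as it called 0% of the 11361 gene totals in either direction. The lowest adjusted p was 0.997 among the helicase genes and 0.515 among all gene totals. DDX19A, counted next, passed the filter only through the KIAA1429 RIP, so no conclusion is drawn from its p. At an unadjusted p under 0.05 there were 2 helicase genes (4%), DDX19A and DDX39B, beside 4.59% of all gene totals. There were 5 without IgG RIP replicate 1 and 4 without IgG RIP replicate 2, beside 6.49% and 5.16% of all. Without KIAA1429 RIP replicate 1 there were 0, beside 3.002% of all, and under the replicate block 5, beside 9.03%. With 2 libraries against 2, an exact permutation test could give no p below 0.333 for a single gene. The absence of calls in limma, which this limit does not bind, does not by itself show that the recovery of these mRNAs was equal.

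Counted by overlap, 9 of 50 genes (18%) had both KIAA1429 RIP values above both IgG RIP values, beside 16.6% of all gene totals, a share near the background. In the opposite direction there were 2 (4%), beside 15.2% of all. At least 2-fold by the ratio of group means, 4 genes (8%) were higher, namely DDX19A, DDX59, DDX39A and DHX29, beside 7.58% of all, and 2 (4%) were lower, DDX27 and DDX49, beside 6.14%. The median limma log2 fold change was 0.21 for the 50 genes and 0.017 for all gene totals, and the median log2 ratio of group means was 0.21. Without IgG RIP replicate 2 that ratio was -0.16, and the counts of genes apart were 13 higher and 22 lower, beside 29.4% and 37.8% of all gene totals. Without IgG RIP replicate 1 it was 0.45, with 34 higher and 5 lower, beside 40.2% and 29.3% of all. The median limma log2 fold change was -0.17 and 0.41 in these fits for the 50 genes, and -0.080 and 0.088 for all gene totals, so its sign depended on the control library in both.

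**Figure D2:**
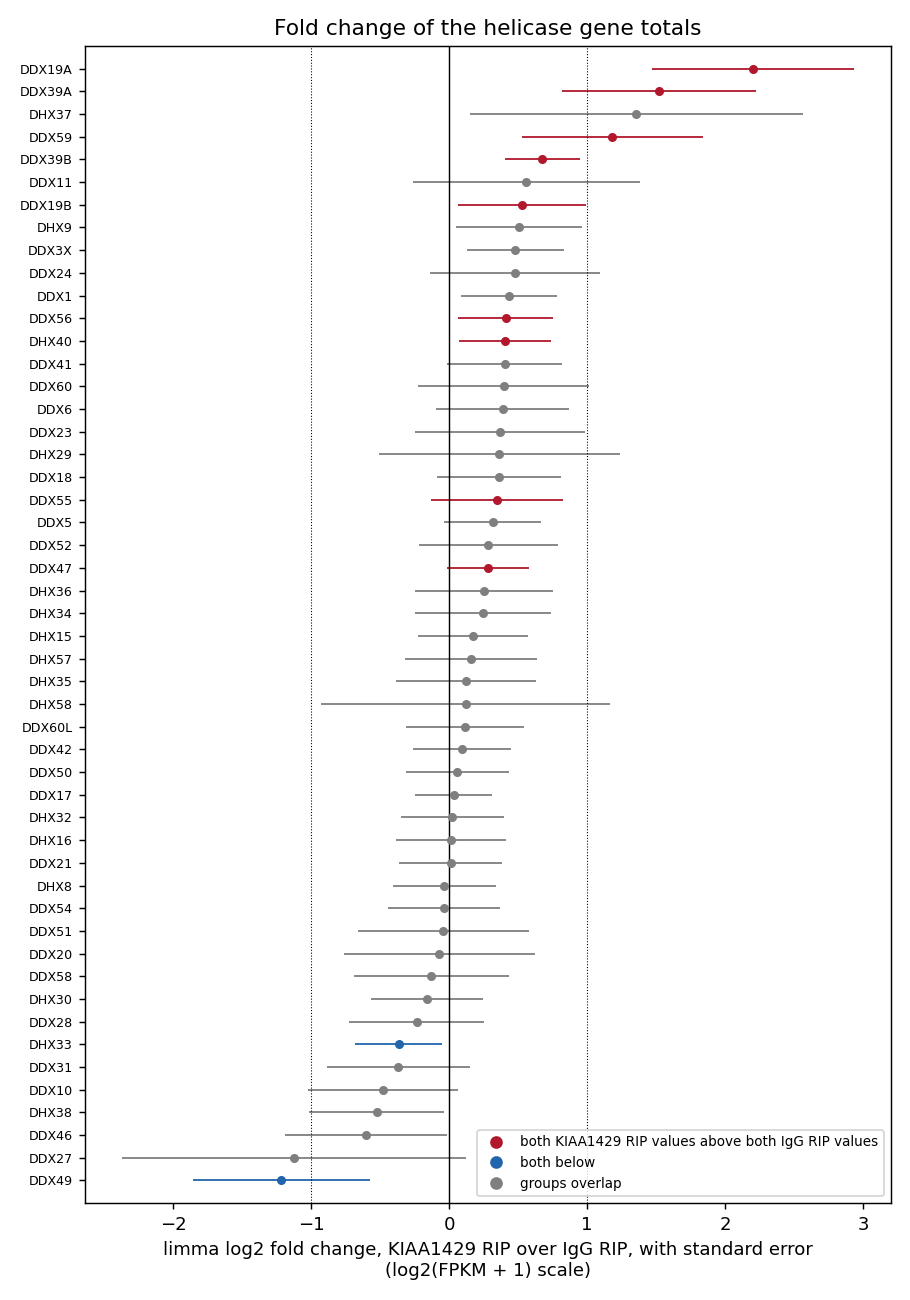
limma log2 fold change of KIAA1429 RIP over IgG RIP for the 50 helicase gene totals, with its standard error as the bar and dotted lines at an absolute value of 1. The fold change was larger than its standard error in 15 genes, 11 of them higher and 4 lower. The same share over all gene totals is not given here. The median of the 50 genes was 0.21 with all libraries. It was -0.17 without IgG RIP replicate 2 and 0.41 without IgG RIP replicate 1.

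Directions were also counted within each replicate number. In replicate 1, the KIAA1429 RIP value was above the IgG RIP value in 23 of 50 genes (46%), compared with 47.2% of all gene totals. In replicate 2, whose control is the library lowest in 30 of the 50 genes, it was above in 41 of 50 (82%), compared with 54.3% of all. Individually, 17 genes (34%) were higher in both, 3 (6%) were lower in both and 30 (60%) had opposite directions, compared with 27.4%, 25.3% and 46.1% of all gene totals.

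**Figure D3:**
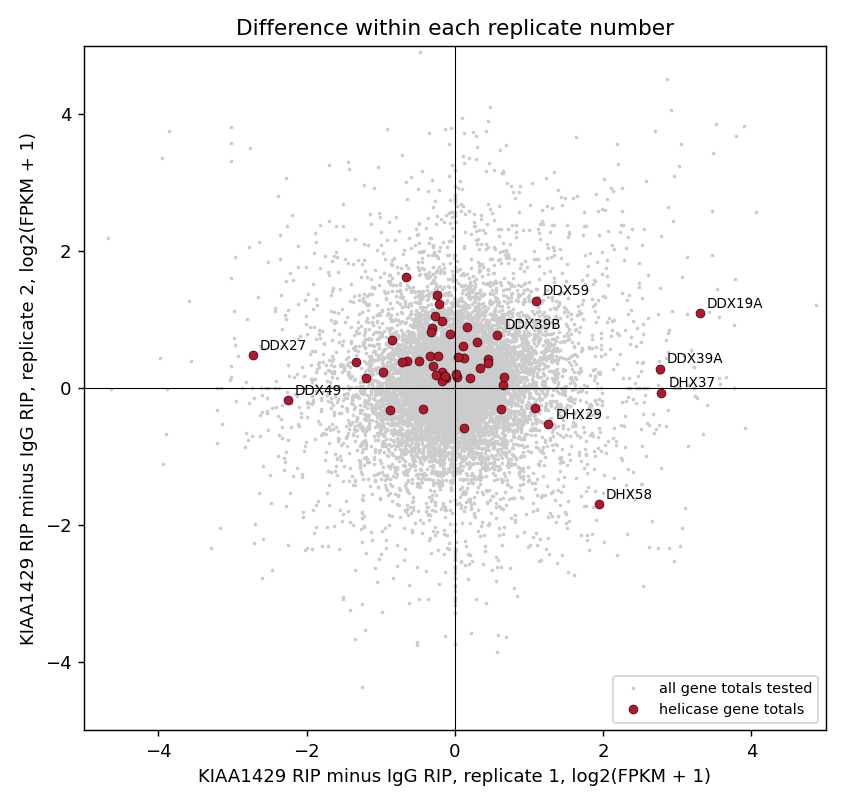
Difference between KIAA1429 RIP and IgG RIP on the log2(FPKM + 1) scale within replicate 1 (horizontal) and replicate 2 (vertical), for all gene totals tested (grey, 2 lying outside the axes) and the 50 helicase genes (red). Most helicase genes lie above the horizontal line, whereas they are spread to both sides of the vertical line.

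Single transcripts were also followed, since the values were deposited per transcript. Of the 144 transcripts, 79 (54.9%) were listed at 0 in at least 1 library, compared with 55.5% of all listed transcripts. The 102 averaging 1 FPKM or more gave 0 limma calls in either direction, as did all 23375 tested (0%). Their lowest adjusted p was 0.819, and 2 (1.96%) had an unadjusted p under 0.05, beside 5.36% of all. Both of these passed the filter only through the group where they were higher. Both KIAA1429 RIP values were above both IgG RIP values in 18 of the 102 (17.6%), beside 15.2% of all transcripts, and below in 7 (6.86%), beside 14.5%.

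The 2 transcripts with an unadjusted p under 0.05 were DDX49 transcript ENST00000629999, annotated for nonsense-mediated decay, and DDX55 transcript ENST00000421670. ENST00000629999 passed the filter only through the IgG RIP and ENST00000421670 only through the KIAA1429 RIP. No conclusion is drawn from their p-values. ENST00000629999 had 4.17 and 7.44 FPKM in the IgG RIP and 0.50 FPKM in KIAA1429 RIP replicate 1, and was listed at 0 in KIAA1429 RIP replicate 2. The main coding transcript, DDX49 transcript ENST00000247003, had 10.3 FPKM in IgG RIP replicate 1, was listed at 0 in IgG RIP replicate 2 and had 1.75 and 11.4 FPKM in the KIAA1429 RIP. With this most abundant transcript in place of the gene total, the log2 fold change of DDX49 was 0.79, opposite in sign to that of the sum. ENST00000421670 was listed at 0 in IgG RIP replicate 1, with 0.73 FPKM in IgG RIP replicate 2 and 3.95 and 3.57 FPKM in the KIAA1429 RIP. Its partner DDX55 transcript ENST00000238146 had 2.70 and 3.07 FPKM in the IgG RIP and 0.87 and 0.39 FPKM in the KIAA1429 RIP, so the transcripts of this gene lay apart in opposite directions.

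In DDX39B both leading transcripts were apart in the direction of the sum. DDX39B transcript ENST00000396172 had 17.0 and 15.8 FPKM in the IgG RIP and 22.0 and 49.7 FPKM in the KIAA1429 RIP, and DDX39B transcript ENST00000458640 had 16.4 and 15.8 against 32.3 and 21.1 FPKM. The libraries of the KIAA1429 RIP thus divided a similar sum differently. In DDX5 the division was sharper. DDX5 transcript ENST00000225792 had 31.9 and 8.51 FPKM in the IgG RIP and 30.0 and 0.054 FPKM in the KIAA1429 RIP, whereas DDX5 transcript ENST00000450599 was listed at 0 in replicate 1 of both groups and had 5.55 and 23.9 FPKM in replicate 2 of the IgG RIP and the KIAA1429 RIP. The log2 fold change of DDX5 was 0.31 for the gene total and -1.63 for its most abundant transcript. Taking the most abundant transcript moved the value of 20 helicase genes more than 1.5 times without turning its sign, among them DDX6 to 2.27, DDX56 to 2.12, DDX55 to 1.85, DDX39A to 2.33, DDX27 to -2.03 and DHX33 to -0.080. Whether this reflects the RNA or the assignment of shared reads to transcripts was not tested.

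Methylation by the complex that holds KIAA1429 favours GGAC among related short motifs, and this string was counted on the sense strand of the most abundant transcript of each gene. It occurred in 100% of the 49 helicase transcripts with an annotated sequence and in 98.5% of 11063 transcripts over all genes. The median was 3.57 per kb in the helicase genes and 3.60 per kb over all, with transcripts of 3748 and 2902 bases in the median. Across the 49 genes, which share libraries and are not independent replicates, the Spearman correlation of the log2 ratio of group means was -0.11 with GGAC per kb and -0.18 with length. A match is a description of the letters and not a methylated site.

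Helicase genes outside the name rule were compared from a list of related families. The files held 20 of the 25 names, and limma called 0 of the 20, with 0 at an unadjusted p under 0.05 (4.59% of all gene totals) and a median log2 fold change of -0.12. Groups were apart in 1 gene in the higher and 2 in the lower direction, beside 16.6% and 15.2% of all. SKIV2L2 (MTR4), the helicase of the nuclear exosome, was the gene apart in the higher direction, with 13.0 and 8.83 FPKM in the IgG RIP and 20.4 and 13.5 FPKM in the KIAA1429 RIP. DICER1, with 14.4 and 18.4 against 11.0 and 12.8 FPKM, and ZNFX1, with 16.9 and 19.1 against 13.5 and 13.7 FPKM, were apart in the lower direction. EIF4A1, the DEAD box subunit of the cap-binding complex, was more abundant than any of the 50 genes and overlapped, at 212 and 225 FPKM in the IgG RIP and 240.1 and 211 FPKM in the KIAA1429 RIP.

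VIRMA mRNA itself, whose level is no check of the precipitation of its protein, had 18.0 and 10.01 FPKM in the IgG RIP and 18.2 and 11.6 FPKM in the KIAA1429 RIP. Of the other writer genes, METTL14 and WTAP overlapped between the groups, while METTL3 was apart in the higher direction without passing the call. METTL3 had 1.19 and 0.50 FPKM in the IgG RIP and 7.44 and 6.04 FPKM in the KIAA1429 RIP. Its log2 fold change was 2.09 with a standard error of 0.52. Its adjusted p in limma was 0.946, and 0.191 under the replicate block. METTL3 averaged under 1 FPKM in the IgG RIP and passed the filter only through the KIAA1429 RIP. No conclusion is drawn from its p. Markers of hepatocellular cells were listed for 8 of 8 genes and summed to 329.6 and 376 FPKM in the IgG RIP and 331 and 363 FPKM in the KIAA1429 RIP, with AFP the most abundant. Of 4 epithelial markers, 3 were listed and summed to 1313 and 1081 FPKM against 1427 and 1286 FPKM, most of it KRT18. Of markers of other cells, 2 of 5 fibroblast genes were listed and summed to 8.62 and 11.8 against 15.7 and 15.5 FPKM, led by THY1. The leukocyte list, also with 2 of 5 genes, summed to 34.5 and 73.0 against 30.8 and 44.4 FPKM, nearly all of it CD68, and its other listed gene, CD14, was listed at 0 in IgG RIP replicate 1. None of the 4 endothelial markers was among the listed genes.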

How the data were processed

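KIAA1429 RIP and IgG RIP were each measured in 2 libraries of HCCLM3 cells, grouped by their labels. The authors selected poly(A) RNA after precipitation and aligned reads to GRCh37 (hg19) with HISAT2, whereas the submitters' processing notes name Bowtie2 2.1.0, and which of them made these files is not settled here. The authors deposited FPKM per transcript. The tool that estimated FPKM is not given in the sources used here. Each listed transcript had a mean of at least 0.500 FPKM in the higher of the groups, so transcripts low in both were not analysed. FPKM corrects for length and total yield, and values depend on how reads shared by transcripts or paralogs were divided. FPKM was multiplied by transcript length, and the 3000 lowest products of each library were compared with many trial sizes of a read. At the best size, 17.6% to 20.1% of the products in the range examined lay within 0.05 of a whole multiple. For a size set beforehand the tolerance alone would give 10%, and the best of many sizes can exceed that. Reads were therefore not recovered, depth is unknown, and precision was judged from the replicates.

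FPKM was summed per gene name. limma 3.58.1 in R 4.3.3 (lmFit, then eBayes with trend) was fitted to log2(FPKM + 1) of all gene totals, and likewise of single transcripts, that averaged 1 FPKM or more. Tests were two-sided with Benjamini-Hochberg adjustment over all features tested, and the fit was tested on simulated data. Fold changes on this scale understate differences of low genes. Tables were made with Python 3.11.15 and pandas 2.3.3. Of 144 transcripts, 134 matched GENCODE release 44, and sequences came from it. Identity was computed from a global alignment with biopython 1.88. Exons of 21 of the 50 genes overlap another gene, and whether counting used strand is not given in the sources used here.

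Genes named were the 10 most abundant, the 6 highest and 6 lowest by ratio of group means, all with groups apart, paralog pairs, related helicases and the writer genes. Others (DDX11, DDX20, DDX55 transcripts and further single transcripts, DHX37) were chosen after their values were seen. Members and lists were chosen with earlier results of these data known. Alternatives were pseudocount, filter, scaling, the replicate block, the variance trend, the transcripts summed and each library left out. DDX3Y, DDX4, DDX12, DDX12P, DDX25, DDX26B, DDX43 and DDX53 were not analysed here.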

Additional observations from a re-analysis of the deposited data

How the results depend on the processing

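No helicase gene was called by limma under any alternative run, with adjusted p from 0.312 upward, and no helicase transcript with or without the block. A count test was not run, because the values are FPKM. Replicate numbers 1 and 2 occur in both groups, and whether same-numbered libraries share more than the number is not given in the labels. Their deviations had a correlation of 0.19 over gene totals and 0.24 over the helicase genes. The replicate block called 12 gene totals higher and 1 lower, 0 of them helicases, where the fit without it called 0 and 0 (522 at an unadjusted p under 0.05). In the settings with all 4 libraries, 1 to 5 helicase genes had an unadjusted limma p under 0.05, beside 4.13% to 9.03% of all tested. The 5 were under the replicate block, where the share of all was 9.03%.

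With a library left out, the lone library of its group is assumed to vary like the other group. Helicase genes apart then numbered 13 to 34 higher and 5 to 22 lower, beside 29.4% to 40.2% and 29.3% to 37.8% of all gene totals, an alternative chosen after seeing the data, and fewer libraries make groups easier to separate. The median log2 ratio ranged from -0.16 to 0.45, and was -0.13 within replicate 1 and 0.41 within replicate 2. With coding transcripts only, 8 helicase genes were apart in the higher and 1 in the lower direction. With every transcript summed, the shares of all gene totals were 16.6% and 15.2%. The shares for coding transcripts alone are not given here.

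The replicate block, both filters and limma without trend cannot move a fold change in this design. Of the 449 fold changes of the 50 genes recomputed in the other settings, 67 changed sign, in 38 genes, 8 of them for fold changes larger than their standard error. The cause was not tested. For the genes whose sign turned when a library was left out, the log2 fold changes ranged over DDX10 -1.09 to 0.13, DDX11 -0.53 to 1.65, DDX17 -0.081 to 0.15, DDX18 -0.24 to 0.97, DDX20 -0.80 to 0.66, DDX21 -0.37 to 0.40, DDX23 -0.42 to 1.15, DDX24 -0.42 to 1.37 and DDX27 -3.16 to 0.91. Others ranged over DDX28 -0.65 to 0.18, DDX31 -0.74 to 0.011, DDX42 -0.14 to 0.33, DDX46 -1.28 to 0.076, DDX50 -0.24 to 0.36, DDX51 -0.61 to 0.53, DDX52 -0.23 to 0.79, DDX54 -0.48 to 0.40 and DDX58 -0.44 to 0.18. Further ranges were DDX6 -0.35 to 1.12, DDX60 -0.091 to 0.88, DDX60L -0.21 to 0.44, DHX15 -0.19 to 0.54, DHX16 -0.40 to 0.43, DHX29 -0.94 to 1.66, DHX30 -0.52 to 0.20, DHX32 -0.19 to 0.24 and DHX34 -0.22 to 0.71. The last were DHX35 -0.15 to 0.39, DHX36 -0.18 to 0.68, DHX37 -0.66 to 3.38, DHX38 -1.09 to 0.036, DHX57 -0.24 to 0.57, DHX58 -1.57 to 1.81, DHX8 -0.35 to 0.28 and DHX9 -0.17 to 1.18. Genes that kept their sign with a library left out ranged over DDX1 0.17 to 0.70, DDX19A 1.35 to 3.05, DDX19B 0.17 to 0.88, DDX39A 0.40 to 2.65, DDX39B 0.61 to 0.74, DDX3X 0.12 to 0.84, DDX41 0.039 to 0.77 and DDX47 0.066 to 0.50. The rest of these were DDX49 -2.18 to -0.25, DDX5 0.021 to 0.61, DDX55 0.16 to 0.54, DDX56 0.17 to 0.65, DDX59 0.58 to 1.79, DHX33 -0.56 to -0.17 and DHX40 0.35 to 0.46. With the most abundant transcript, values turned for DDX24 (-0.15), DDX31 (0.43), DDX49 (0.79), DDX5 (-1.63), DDX60 (-0.18), DDX60L (-0.040), DHX32 (-0.21) and DHX9 (-0.046). With coding transcripts only, they turned for DDX54 (0.071), DDX56 (-0.86), DDX60L (-0.26) and DHX9 (-0.046). A pseudocount of 0.1 turned DDX20 (0.080), and quantile normalization turned DDX17 (-0.086), DDX21 (-0.037) and DHX16 (-0.022). No sign changed under median scaling. Fold changes also moved more than 1.5 times without a turn. With the most abundant transcript these were DDX1 (2.68), DDX10 (-0.15), DDX17 (0.20), DDX21 (0.069), DDX27 (-2.03), DDX39A (2.33), DDX42 (0.38), DDX46 (-0.095), DDX50 (0.18), DDX54 (-0.51), DDX55 (1.85), DDX56 (2.12), DDX6 (2.27), DHX16 (0.14), DHX30 (-0.40), DHX33 (-0.080), DHX37 (0.0045), DHX38 (-0.26), DHX58 (0.28) and DHX8 (-0.37). With a pseudocount of 0.1 they were DDX11 (1.88), DDX19A (4.26), DDX27 (-0.49), DDX51 (-0.13), DDX60 (0.69), DHX37 (2.91) and DHX58 (1.42), and with coding transcripts only DDX10 (-0.15), DDX50 (0.18), DHX16 (0.18) and DHX30 (-0.43). Under quantile normalization they were DDX50 (0.037), DDX54 (-0.085), DHX32 (0.0065) and DHX58 (0.063), and under median scaling DDX21 (0.0043), DHX16 (0.0062), DHX32 (0.013) and DHX58 (0.067).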
